A study of Mus musculus with 4 samples.

Results

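The transcription factor p53, encoded by *Trp53*, and 9 genes that it binds and activates directly (*Cdkn1a*, *Mdm2*, *Ccng1*, *Zmat3*, *Trp53inp1*, *Phlda3*, *Eda2r*, *Sesn1* and *Plk2*) were followed in cultured mouse female germline stem cells (FGSCs) after knockdown of *Nat10*. The genes were chosen by name as well-known members of the pathway, with earlier results of these data known. All 10 were found among the 53465 genes of the deposited expression table. NAT10 is the enzyme that writes N4-acetylcytidine on RNA, and the comparison asks how its depletion changes the transcriptome of FGSCs. FGSCs are cells of ovarian origin that are propagated in culture and described as germline stem cells. The control group (shNC) carried a lentiviral control shRNA and the knockdown group (shNAT10) a lentiviral shRNA against *Nat10*, with 2 libraries in each group and 4 in all. In the methods, infected cells were selected with puromycin or blasticidin. The sources used here do not say which *Nat10* shRNA or which drug was used for these libraries, nor the age of the animals the cells came from, while mice of the study had a C57BL/6J background. The study calls the libraries of a group biological replicates without saying whether they came from separate cultures, so the p-values measure the spread between these libraries, which may be technical.

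In a resting cell p53 is kept scarce because MDM2 marks it for degradation, and its activity is set largely by the stability and modification of the protein rather than by the level of its mRNA. DNA damage, ribosomal stress and other insults release p53 from MDM2, and it then binds a paired DNA element and raises the transcription of its targets. Those targets arrest the cell cycle, repair DNA, dampen growth signalling, promote death or feed back on p53 itself. In the ovary the p53 family is known for removing germ cells with damaged DNA.

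The members differed in what lies before their transcription starts. A p53 element is a pair of decamers, each of 10 bases with the core CNNG, separated by a spacer of up to 13 bases. The search required the C and G of each core, and counted mismatches against the full p53 consensus, which asks for A or G before the core, A or T inside it and C or T after it. RefSeq promoter windows of GRCm38.p6, from 250 bases before to 50 bases after a start, were available for 8 of the 10 genes, which leaves out *Zmat3* and *Trp53inp1*. Both strands are covered, because the paired consensus reads the same on each. Below are the stretches of the 2 genes whose windows held a pair with at most 1 mismatch, shown because these are the closest matches among the members. Capitals mark the decamers.

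Cdkn1a, chr17:29090866-29090978, plus strand: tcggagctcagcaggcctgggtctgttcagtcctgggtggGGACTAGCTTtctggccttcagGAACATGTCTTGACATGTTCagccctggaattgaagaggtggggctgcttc
Ccng1, chr11:40755422-40755521, minus strand: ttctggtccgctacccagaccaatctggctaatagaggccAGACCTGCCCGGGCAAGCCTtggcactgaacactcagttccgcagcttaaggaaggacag

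In *Cdkn1a* the first pair has 0 mismatches and a spacer of 12 bases, and it begins 73 bases before the first of the RefSeq starts of the gene. The last 2 decamers of that stretch adjoin each other, with a spacer of 0 and 1 mismatch. This pair begins 51 bases before that same first start, and 2841 bases before the next RefSeq start of the gene. The *Ccng1* pair has a spacer of 0 and 1 mismatch and begins 195 bases before the start. A pair with 0 mismatches occurred in the windows of 0.074% of the 27025 genes with a window, and a pair with at most 1 mismatch in 0.718%. *Sesn1* had a pair with 2 mismatches and *Trp53* a pair with 3. *Eda2r*, *Mdm2*, *Phlda3* and *Plk2* had none within 3 mismatches in these windows, as against 17.4% of all genes with at least such a pair. A match is a description of letters and not a bound site, and elements in introns or farther away lie outside these windows.

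The libraries held 14902438 (shNC-1), 13029105 (shNC-2), 11057922 (shNAT10-1) and 13771494 (shNAT10-2) fragments on genes, recovered from the deposited FPKM, which count fragments relative to exon length and library size. Each member had between 51 and 8192 fragments in a library. All 10 members were among the 20116 genes whose mean FPKM reached 0.1, on which limma with a mean-variance trend was run on log2(FPKM + 0.1), two-sided. Calls follow the threshold of the study, a fold change above 1.2 with p no higher than 0.05 before adjustment, and Benjamini-Hochberg adjusted p-values are over all genes tested. On this log scale the fold changes of genes with low FPKM are understated. With 2 libraries against 2, an exact two-sided permutation test cannot give a p under 0.3333. The knockdown target *Nat10* had 7.79 and 5.42 FPKM in the control pair against 2.96 and 3.04 in the knockdown pair. Its log2 fold change of -1.09 (SE 0.21, adjusted p = 0.123 by limma) passed the threshold. With 1 library left out it ranged from -1.35 to -0.83.

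Markers of the labelled cell type were scarce in these libraries. The study showed *Oct4* (*Pou5f1*), *Ddx4*, *Fragilis* (*Ifitm3*) and *Blimp1* (*Prdm1*) in its FGSCs by RT-PCR, and DDX4 and OCT4 by immunofluorescence. Those are other measures and may be of other cultures. *Dazl*, *Pou5f1* and *Dppa3* were listed at 0 in all 4 libraries, only 2 fragments of *Ddx4* and 24 of *Prdm1* were found, and of the 8 germline markers 3 could be tested, with 0 called. *Ifitm3*, which many other cells express too, was the germline marker with the highest level, 9.29 and 22.2 FPKM in the control pair against 27.1 and 33.6 in the knockdown pair. At a log2 fold change of 1.06 it was not called (limma, adjusted p = 0.326), but it was called higher with the replicate number as a block, by limma-voom (adjusted p = 0.00362), at a mean FPKM of at least 1, with protein-coding or total-fragment scaling, and without shNC replicate 2 (1.69). Pan-leukocyte genes, by contrast, were all detected, with 11 of 11 tested. Their summed FPKM was 543.0 and 596.1 in shNC and 432.8 and 453.1 in shNAT10. Of all genes tested 7.83% were called lower and 8.41% higher, and of these 11 genes 7 were lower and 0 higher. Scaled to the total of all recovered fragments, 1 of them was lower and 2 were higher, and with a library left out 2 (without shNAT10 replicate 1) to 6 (without shNC replicate 2) were lower. Of the mast cell markers 6 of 11 could be tested. Of these 1 was higher (*Ms4a2*, log2 fold change 2.12) and 3 were lower (*Kit* -0.60, *Gata2* -0.33 and *Mitf* -0.39). Scaled to the total of all recovered fragments the calls were 3 higher and 0 lower, where 5287 of 20077 genes were higher and 311 lower. Their summed FPKM was 322.0 and 331.9 in shNC and 330.0 and 324.8 in shNAT10, with *Fcer1a* and *Tpsb2* at 0. Most of it was *Cpa3*, with 245.1 and 262.4 FPKM against 271.8 and 267.4. Of the macrophage markers 4 of 6 could be tested, with 1 higher and 1 lower, or 1 and 0 on that scale (48.1 and 52.9 FPKM against 38.1 and 43.3). Most of that sum was *Adgre1*, with 44.7 and 47.8 FPKM against 33.2 and 38.5. Of the fibroblast markers 7 of 8 could be tested, with 3 higher and 1 lower, or 4 and 0 on that scale (59.0 and 52.4 FPKM against 68.8 and 59.5, with *Lum* at 0). Most of that sum was *Dcn*, with 41.08 and 36.25 FPKM against 45.85 and 36.79. With a library left out, 1 or 2 of the fibroblast markers were higher and 0 lower, and of the mast cell markers 0 to 2 were higher and 1 or 2 lower. The macrophage calls were 0 and 0 without either shNC library. Of the granulosa cell markers 4 of 8 could be tested and of the oocyte markers 1 of 7, with 0 called in the main comparison. By limma-voom, at a mean FPKM of at least 1 and on the total-fragment scale 1 granulosa marker was higher. The oocyte marker *Gdf9* (log2 fold change -0.74, from 13 fragments) was lower without the variance trend. With 1 library left out it ranged from -0.84 to -0.64. Calls in both lists also appeared without shNC replicate 1. *Foxl2*, *Fshr*, *Zp2*, *Zp3*, *Bmp15* and *Figla* were listed at 0. In bulk RNA, fewer cells of a type and less RNA per cell cannot be told apart, and the part of these markers in the p53 results was not tested.

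*Trp53* mRNA itself gave 10.3 and 12.6 FPKM in the control pair against 12.2 and 12.3 in the knockdown pair. The groups overlapped, because shNC-2 lay above both shNAT10 libraries and shNC-1 below them. Its log2 fold change was 0.11 (SE 0.13, 95% interval -0.24 to 0.45) and was not called (p = 0.457 by limma, adjusted p = 0.723, and 1.0 by an exact permutation test). The interval still allows a rise of up to 0.45 on the log2 scale. The value ranged from -0.04 (without shNC replicate 1) to 0.25 (without shNC replicate 2). *Trp53* lies on chromosome 11 of GRCm38, plus strand, from 69580359 to 69591873, with 4045 nt of exon sequence in GENCODE M21. Its processed pseudogene *Trp53-ps* was listed at 0 in all 4 libraries.

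Of the 10 genes, 6 were called higher in shNAT10 and 0 lower, whereas 8.41% of all genes tested were called higher and 7.83% lower. The 6 were *Eda2r*, *Zmat3*, *Phlda3*, *Ccng1*, *Trp53inp1* and *Cdkn1a*. In the same 6 both shNAT10 libraries lay above both shNC libraries, as they did in 23.9% of all genes. *Sesn1* and *Plk2* showed the opposite order, without overlap, as in 24.1% of all genes. The median log2 fold change of the 10 genes was 0.36, and that of all genes tested was 0.00543. None (0 of 10) had an adjusted p under 0.05 by limma on FPKM, which 0.437% of all genes reached. With limma-voom on the recovered fragments, 5 of the 10 had an adjusted p under 0.05 and were higher and 0 were lower, beside 4.26% and 3.62% of 20077 genes. Leaving out any 1 library reduced the 6 calls to 3. *Phlda3* and *Eda2r* were called in all 4 of these fits. The third was *Ccng1*, except without shNC replicate 2, where it was *Trp53inp1*.

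**Figure D1:**
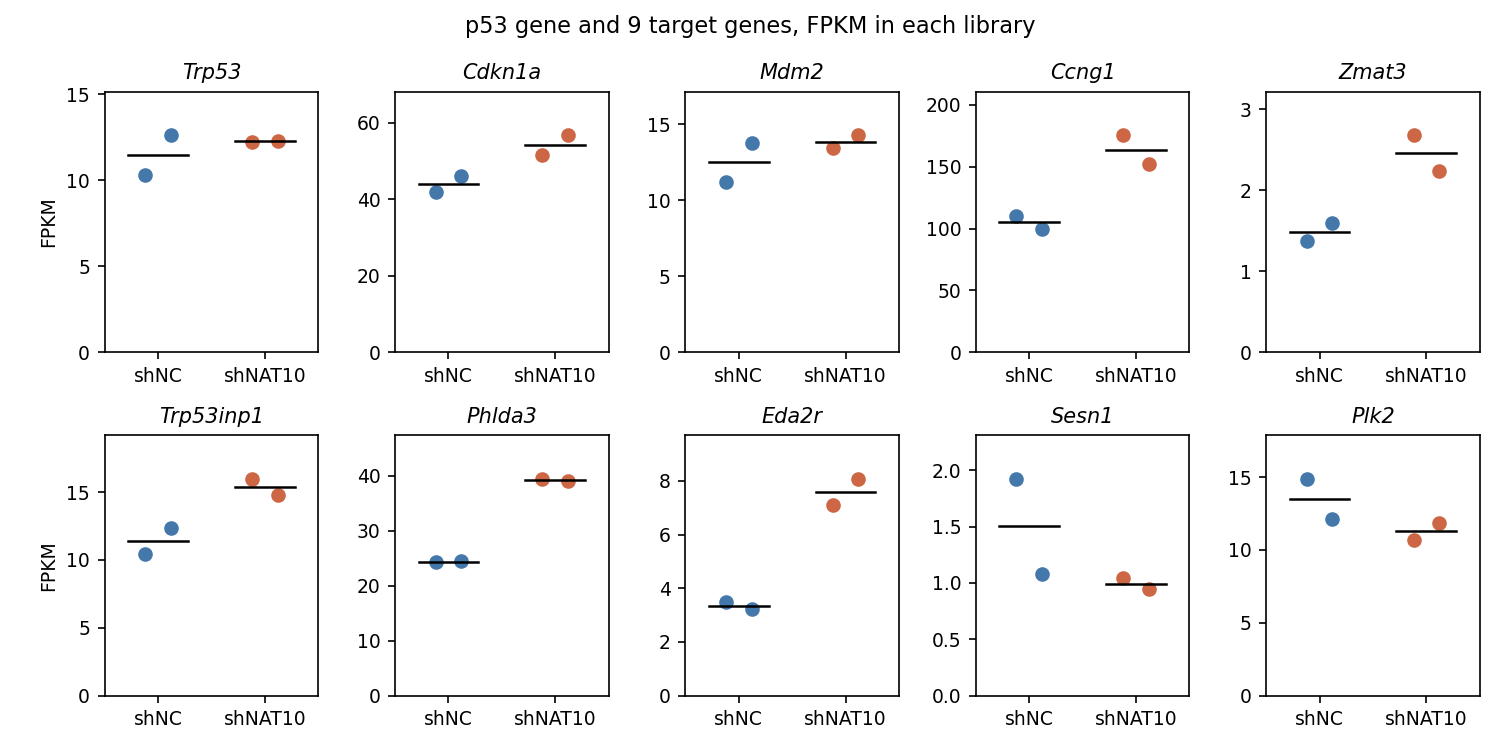
FPKM of *Trp53* and its 9 targets in each library, with 1 panel per gene and axes from 0. Points are the 2 shNC (blue) and 2 shNAT10 (orange) libraries and lines are group means. In *Eda2r*, *Phlda3*, *Ccng1*, *Zmat3*, *Trp53inp1* and *Cdkn1a* both orange points lie above both blue points, and in *Sesn1* the shNC libraries lie far apart, at 1.92 and 1.08 FPKM.

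The cell cycle inhibitor p21, the product of *Cdkn1a*, binds cyclin-dependent kinases and carries the G1 arrest that p53 imposes. *Cdkn1a* had 41.9 and 46.2 FPKM in the control pair against 51.5 and 56.8 in the knockdown pair. The groups did not overlap, but the gap between shNC-2 and shNAT10-1 was about as wide as the gap within each group, which was 0.14 on the log2 scale in both. The log2 fold change was 0.30 (SE 0.10, 95% interval 0.03 to 0.56), with p = 0.0348 and adjusted p = 0.262 by limma and an exact permutation p of 0.3333. It was the smallest of the 6 rises, and its call was lost in each fit that left out 1 library, with log2 fold changes of 0.23 to 0.37. It was also lost without the variance trend, while its adjusted p was 0.0826 by limma-voom. *Cdkn1a* lies on chromosome 17, plus strand, from 29090976 to 29100727. An antisense transcript, *AC167363.2*, covers 273 nt (7.68%) of its exons, and without a stated strand setting for the counting, fragments there could belong to either.

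*Ccng1* encodes cyclin G1, which recruits a phosphatase to MDM2. It was the most abundant of the 10 genes, with 110.5 and 99.3 FPKM in the control pair against 175.4 and 152.2 in the knockdown pair. Every shNAT10 library lay well above every shNC library. The log2 fold change was 0.64 (SE 0.11, 95% interval 0.34 to 0.94, p = 0.00321 by limma with adjusted p = 0.116, exact permutation p = 0.3333, adjusted p = 2.28e-05 by limma-voom). With 1 library left out it was between 0.54 and 0.74, the call being lost without shNC replicate 2 (log2 fold change 0.56). The gene lies on chromosome 11, minus strand, from 40748552 to 40755311, directly downstream of the decamer pair printed above.

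*Mdm2* encodes the ubiquitin ligase that holds p53 down and is itself a p53 target, which closes the best-known feedback loop of the pathway. It had 11.2 and 13.8 FPKM in the control pair against 13.4 and 14.3 in the knockdown pair. The groups overlapped, with shNAT10-1 below shNC-2. The log2 fold change of 0.15 (SE 0.13, 95% interval -0.20 to 0.51, p = 0.306 by limma with adjusted p = 0.603, exact permutation p = 0.6667) did not pass the threshold, and it ranged from 0.00655 to 0.30 with 1 library left out. The interval holds both no change and the change of *Cdkn1a*. *Mdm2* lies on chromosome 10, minus strand, from 117688875 to 117710758.

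Among the members that act in cell death, the largest fold change belonged to *Eda2r*, which encodes a receptor of the tumour necrosis factor receptor family for ectodysplasin A2. *Eda2r* had 3.48 and 3.22 FPKM in the control pair against 7.11 and 8.07 in the knockdown pair, a fold of 2.23. The groups did not overlap, and the gap between them was far wider than the SDs of 0.188 FPKM in shNC and 0.678 FPKM in shNAT10. The resulting log2 fold change was 1.16 (SE 0.13, 95% interval 0.81 to 1.5, p = 0.000467 by limma with adjusted p = 0.0621, exact permutation p = 0.3333, adjusted p = 2.21e-06 by limma-voom), and it stayed between 1.06 and 1.25 with 1 library left out. It lies on the X chromosome, minus strand, from 97333840 to 97377216. Its ligand gene *Eda* had 1 fragment in the 4 libraries and the related receptor gene *Edar* was listed at 0.

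*Phlda3* encodes a small pleckstrin homology protein that competes with AKT for membrane lipids. It had 24.3 and 24.4 FPKM in the control pair against 39.4 and 39.1 in the knockdown pair. The 2 libraries of each group were nearly equal. It rose by a log2 fold change of 0.69 (SE 0.08, 95% interval 0.48 to 0.89), with p = 0.000471 and adjusted p = 0.0622 by limma, an adjusted p of 0.000642 by limma-voom and an exact permutation p of 0.3333. It moved no farther than 0.68 to 0.69 when a library was left out. *Phlda3* lies on chromosome 1, plus strand, from 135766119 to 135769136.

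*Trp53inp1* encodes a stress protein that promotes autophagy and the pro-apoptotic phosphorylation of p53. It had 10.4 and 12.4 FPKM in the control pair against 16.0 and 14.8 in the knockdown pair, with no overlap. The log2 fold change was 0.43 (SE 0.12, 95% interval 0.11 to 0.76, p = 0.0196 by limma with adjusted p = 0.215, exact permutation p = 0.3333, adjusted p = 0.0204 by limma-voom). The call was kept without shNC replicate 2 and lost without shNC replicate 1, shNAT10 replicate 1 or shNAT10 replicate 2, where the log2 fold change was 0.31, 0.38 and 0.49. It was also lost without the variance trend. The gene lies on chromosome 4, plus strand, from 11156431 to 11174379.

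*Zmat3* encodes a zinc finger protein that binds RNA and alters splicing and mRNA stability. It had 1.38 and 1.59 FPKM in the control pair against 2.67 and 2.24 in the knockdown pair, from 185 and 216 fragments and 384 and 392 fragments. The groups did not overlap, although the shNAT10 libraries differed by 0.25 on the log2 scale. Its log2 fold change was 0.69 (SE 0.19, 95% interval 0.19 to 1.19, p = 0.0171 by limma with adjusted p = 0.209, exact permutation p = 0.3333, adjusted p = 0.00525 by limma-voom). Leave-one-out values were 0.56 to 0.81, and the call was lost in every one of the 4 fits. *Zmat3* lies on chromosome 3, minus strand, from 32334792 to 32366014, and its 11435 nt of exons are the longest of the 10 genes.

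The remaining targets, *Sesn1* and *Plk2*, were not called. *Sesn1* encodes sestrin 1, which restrains mTORC1 signalling, and it had 1.92 and 1.08 FPKM in the control pair against 1.04 and 0.950 in the knockdown pair. The gap between the shNC libraries was 0.78 on the log2 scale, larger than that between the groups. The log2 fold change was -0.50 (SE 0.32, 95% interval -1.35 to 0.36, p = 0.190 by limma with adjusted p = 0.527, exact permutation p = 0.3333), from 51 to 90 fragments per library. Without shNC replicate 2 it was -0.89 and passed the threshold, and without shNC replicate 1 it was -0.11. *Sesn1* lies on chromosome 10, plus strand, from 41809935 to 41908424.

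*Plk2* encodes a polo-like kinase with roles in centriole duplication and stress responses. It had 14.9 and 12.1 FPKM in the control pair against 10.7 and 11.9 in the knockdown pair. The shNAT10 pair was lower without overlap, with shNAT10-2 close to shNC-2. Its log2 fold change of -0.25 (SE 0.14, 95% interval -0.62 to 0.11, p = 0.133 by limma with adjusted p = 0.452, exact permutation p = 0.3333) did not pass the threshold. It was -0.40 to -0.11 with 1 library left out. *Plk2* lies on chromosome 13, plus strand, from 110395046 to 110400844.

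**Figure D2:**
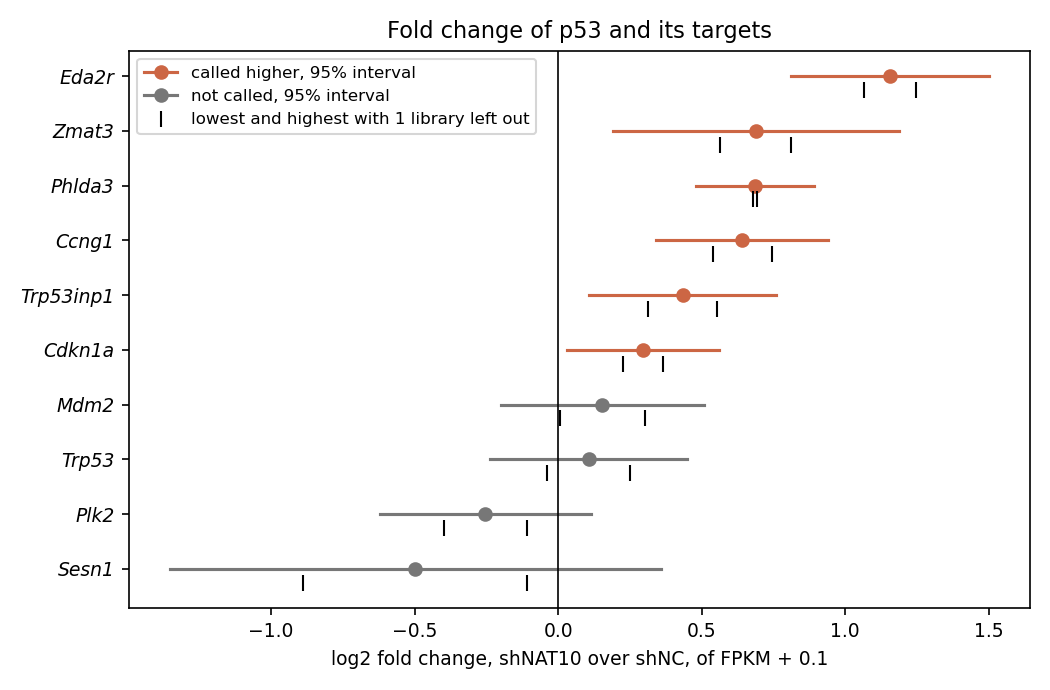
Log2 fold change of shNAT10 over shNC for the 10 genes on the log2(FPKM + 0.1) scale. Points with lines are estimates with 95% intervals from limma, orange where called higher, and black ticks are the lowest and highest values with 1 library left out. The intervals of 6 genes lie above 0, from *Cdkn1a* at 0.30 to *Eda2r* at 1.16, and those of *Mdm2*, *Trp53*, *Plk2* and *Sesn1* cross 0.

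The order of the levels, which FPKM allows because it is per length, was similar at the top in both groups. In shNC the mean FPKM was 104.9 for *Ccng1*, 44.1 for *Cdkn1a* and 24.4 for *Phlda3*, with no overlap between these neighbours. *Plk2* (13.5), *Mdm2* (12.5), *Trp53* (11.5) and *Trp53inp1* (11.4) followed, and the ranges of their shNC libraries overlapped from each to the next. *Eda2r* (3.35), *Sesn1* (1.5) and *Zmat3* (1.48) came last, the final pair with overlapping ranges. In shNAT10 *Trp53inp1* (15.4) lay above *Mdm2* (13.9), *Trp53* (12.3) and *Plk2* (11.3), and these 4 did not overlap. *Zmat3* (2.46) lay above *Sesn1* (0.995), again without overlap.

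Dividing each target by *Trp53* in the same library removes any factor common to the library. *Eda2r* per *Trp53* was 0.338 and 0.255 in shNC and 0.581 and 0.655 in shNAT10, a ratio between groups of 2.1. For *Zmat3* the ratio between groups was 1.53, for *Phlda3* 1.5, for *Ccng1* 1.45 and for *Trp53inp1* 1.26. The shNAT10 values of these 5 genes lay above both shNC values. *Cdkn1a* per *Trp53* was 4.07 and 3.66 in shNC and 4.20 and 4.61 in shNAT10, a ratio of 1.14. *Mdm2* per *Trp53* was 1.09 in both shNC libraries and 1.10 and 1.16 in shNAT10, so it followed *Trp53* closely within each library. *Sesn1* had a ratio between groups of 0.641 and *Plk2* one of 0.778, with 0.963 *Plk2* per *Trp53* in a library of each group. These ratios are a description and were not tested.

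**Figure D3:**
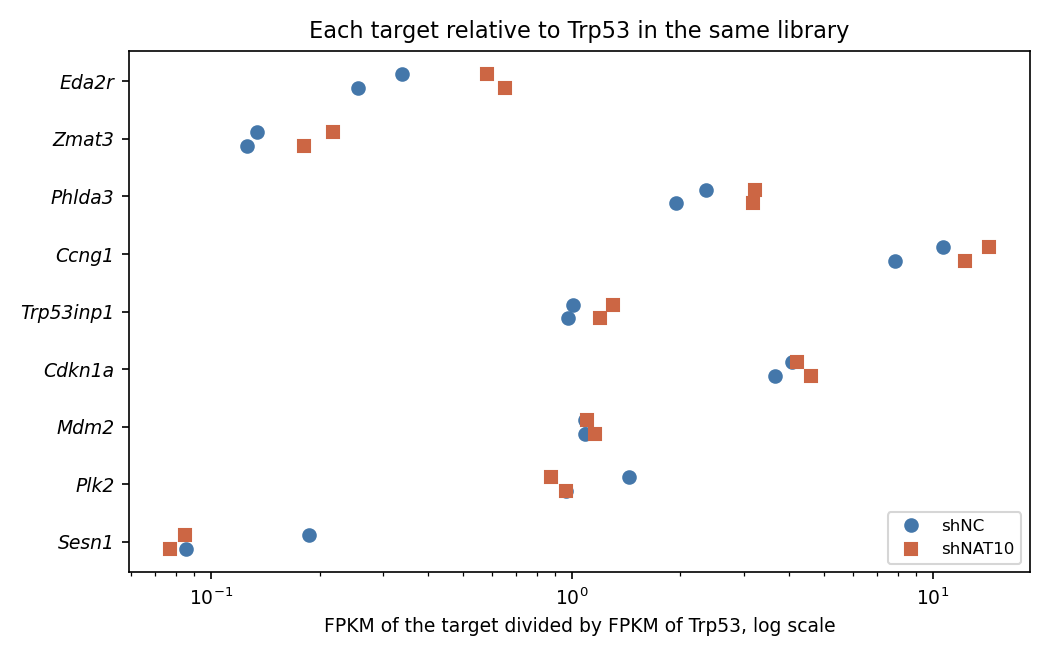
FPKM of each target divided by the FPKM of *Trp53* in the same library, on a log axis, for the 2 shNC (blue circles) and 2 shNAT10 (orange squares) libraries. *Eda2r* shows the widest gap, with 0.255 and 0.338 against 0.581 and 0.655, while the 4 points of *Mdm2* lie between 1.09 and 1.16.

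The deposited FPKM already carry a median-ratio scaling between libraries, which evens out the typical gene. Scaled to the total of all recovered fragments, the fold changes shifted up together, with a median log2 fold change over all genes of 0.381. On that scale 5287 genes were called higher and 311 lower, in place of 1691 and 1576. Of the 10 genes, 7 were then called higher and 0 lower, the added gene being *Mdm2*. Relative to the median of all genes on that scale the members' median was 0.389, close to the 0.359 on the deposited scale, and *Plk2* was at 0.15 on that scale and at -0.23 relative to that median.

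Of 51 further p53 targets, 15 were called higher (29.4%) and 8 lower (15.7%), with a median log2 fold change of 0.16, beside 8.41% and 7.83% of all genes. At an adjusted p under 0.05, limma-voom called 11 higher and 3 lower. Scaled to the total of all recovered fragments, 28 were called higher and 1 lower. With 1 library left out, the number called higher fell to between 6 (without either shNAT10 replicate) and 13 (without shNC replicate 2), and the number called lower to between 1 (without shNAT10 replicate 2) and 4 (without shNC replicate 2), with 2 without shNC replicate 1 and 2 without shNAT10 replicate 1. These genes were listed with earlier results of these data known.

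The targets that act in cell death had the most calls in 1 direction among the groups of further targets, 5 of 12 higher and 0 lower, with a median of 0.40, and with 5 higher without shNC replicate 2, 3 without shNC replicate 1 or shNAT10 replicate 2, and 2 without shNAT10 replicate 1. Over all genes 8.41% were called higher and 7.83% lower. Scaled to all recovered fragments, 9 of the 12 were higher, where 5287 of 20077 genes were higher and 311 lower. *Perp*, a membrane protein of the apoptotic and desmosomal machinery, had 50.7 and 53.7 FPKM in the control pair against 103.4 and 104.1 in the knockdown pair. These are tight and well separated groups. Its log2 fold change was 0.99 (SE 0.08, adjusted p = 0.0443 by limma). *Pidd1*, the scaffold of the PIDDosome, rose by 0.91 and the death receptor gene *Fas* by 0.61 (adjusted p = 0.177 and 0.206 by limma). *Ei24* rose by 0.44 and the nuclease gene *Aen* by 0.37 (adjusted p = 0.1515 and 0.2105 by limma). With 1 library left out these 4 ranged from 0.70 to 1.12, 0.50 to 0.72, 0.39 to 0.49 and 0.32 to 0.41. *Aen* lost its call without the variance trend. *Fas* was not among those higher without shNC replicate 2, at 0.64. *Fas* had 1.75 and 1.82 FPKM in the control pair against 3.01 and 2.57 in the knockdown pair. *Bax* (log2 fold change 0.25, adjusted p = 0.528 by limma), *Pmaip1*, which encodes NOXA (0.56, adjusted p = 0.304 by limma, though 0.0379 by limma-voom), and *Bbc3*, which encodes PUMA (-0.26, adjusted p = 0.369 by limma), were not called in the main comparison. Their products are BCL2-family proteins that act at mitochondria.

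Of the 6 arrest genes 2 were called higher and 0 lower, beside 8.41% and 7.83% of all genes. The number higher was 1 with shNC replicate 2 or either shNAT10 library left out, and 3 when scaled to all recovered fragments. *Btg2*, an antiproliferative factor that promotes mRNA deadenylation, had 2.42 and 2.06 FPKM in the control pair against 5.0 and 4.47 in the knockdown pair, a log2 fold change of 1.05 (SE 0.16, adjusted p = 0.0895 by limma). *Psrc1*, a spindle protein, rose by 0.64 on the log2 scale (adjusted p = 0.214 by limma), and was the gene not called when any of those 3 libraries was left out. *Gadd45a* was not called (log2 fold change -0.25, adjusted p = 0.509 by limma).

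Of the 8 DNA repair genes, *Pcna* (log2 fold change 0.51), the sliding clamp of replication and repair, and *Xpc* (0.40), which recognises DNA lesions, rose, and *Rrm2b* (-0.35), a ribonucleotide reductase subunit, fell but was at 0.05 when scaled to all recovered fragments. Without either shNAT10 replicate 0 of these 8 genes were called, without shNC replicate 1 the calls were 1 higher and 0 lower, and scaled to all recovered fragments they were 7 higher and 0 lower. The 9 genes of metabolism and redox balance split evenly, 3 higher and 3 lower, or 1 and 0 without either shNAT10 replicate and 3 and 0 scaled to all recovered fragments. *Ak1*, adenylate kinase 1, had 18.6 and 20.2 FPKM in the control pair against 43.4 and 46.7 in the knockdown pair. Its libraries more than doubled without any overlap, with a log2 fold change of 1.21 (SE 0.09, adjusted p = 0.0443 by limma). *Dcxr* (0.46) also rose. *Ephx1* had 3.01 and 6.09 FPKM in the control pair against 8.34 and 8.93 in the knockdown pair, and its control libraries were far apart. Its log2 fold change of 0.99 was called, ranged from 0.50 (shNC replicate 1 left out) to 1.49 (shNC replicate 2 left out), and lost the call without either shNAT10 replicate. *Ddit4* (-0.62) and *Sesn2* (-0.45), which restrain mTORC1 as sestrin 1 does, and *Tigar* (-0.60), a regulator of glycolysis, fell.

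Among 6 feedback genes and p53-induced RNAs, *Rps27l* (log2 fold change 0.31) rose and *Rchy1* (-0.28), a ubiquitin ligase for p53, fell but was at 0.12 when scaled to all recovered fragments. Both calls were lost without shNAT10 replicate 2, with quantile normalization and with no trend in the fit. *Rchy1* also lost its call without either shNC library and under the replicate block, and *Rps27l* without shNAT10 replicate 1. Not called were *Ppm1d* (0.11), the phosphatase that switches off p53 signalling, and *Rfwd2* (-0.07), which encodes the ubiquitin ligase COP1. Of 10 other targets 2 were called higher and 3 lower, beside the same shares of all genes. *Ptp4a3* (1.35), a phosphatase, and *Tap1* (0.46), a peptide transporter for antigen presentation, rose. *Ndrg1* (-1.25), *Cd82* (-0.63) and *Cyfip2* (-0.34) fell. Scaled to all recovered fragments *Cyfip2* was at 0.06 and *Cd82*, at -0.23, was no longer called. Relative to the median of all genes on that scale they were at -0.32 and -0.61. The number of these targets called lower was 1 with any 1 library left out and on that scaling, and the number higher was 1 without shNC replicate 2 or shNAT10 replicate 2 and 4 on that scaling. *Ndrg1* had 12.5 and 20.3 FPKM in the control pair against 6.49 and 6.84 in the knockdown pair, so its control libraries were far apart but still above both knockdown libraries.

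**Figure D4:**
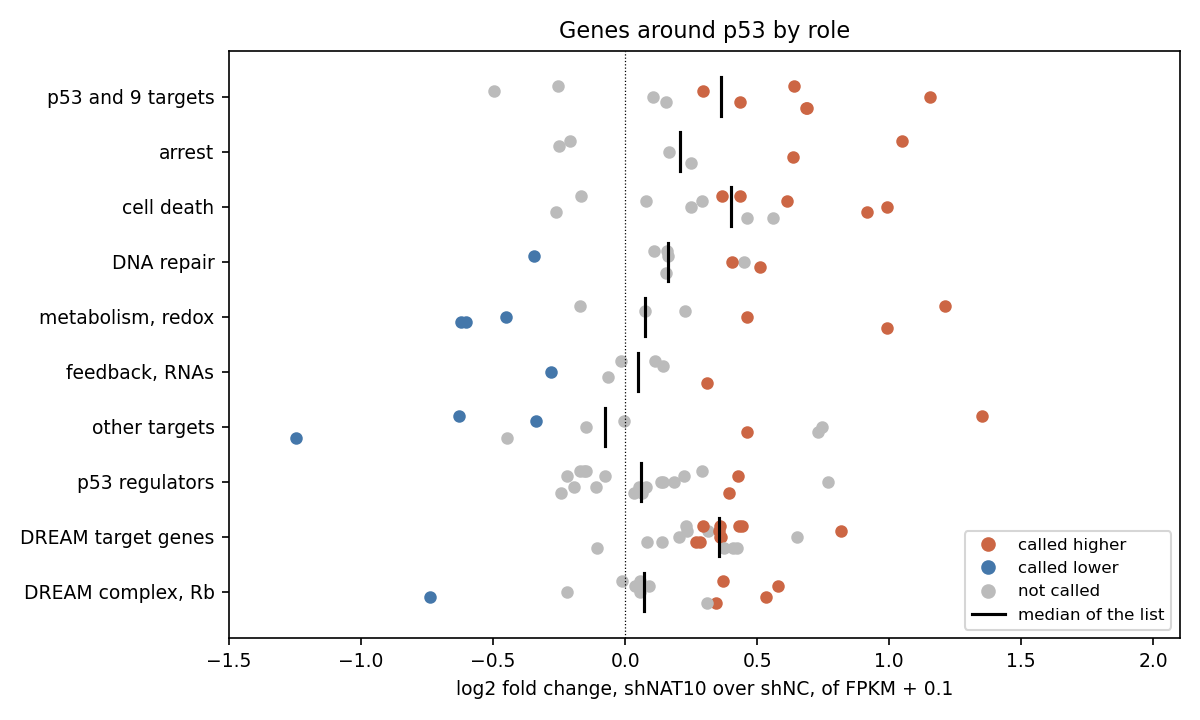
Log2 fold change of shNAT10 over shNC on the log2(FPKM + 0.1) scale for single genes, grouped by role. Each point is a gene, orange where called higher, blue where called lower and grey where not called, and black bars are list medians. Cell death targets have 5 orange points and no blue one, metabolism has 3 of each, and the medians run from -0.07 for other targets to 0.40 for cell death.

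Of the regulators that act on p53, 2 of 20 tested were called higher, or 10% beside 8.41% of all genes, and 0 lower, with a median log2 fold change of 0.06. The number higher was 0 without either shNAT10 replicate, 1 without shNC replicate 2, 3 without shNC replicate 1, 4 by limma-voom and 9 scaled to all recovered fragments. The number lower was 1 without shNC replicate 1 and with quantile normalization. The damage kinases *Atr* (0.43) and *Chek2* (0.39) were the 2 called higher. The call of *Chek2* was lost under the replicate block, without the variance trend and with protein-coding scaling. With 1 library left out *Atr* ranged from 0.39 to 0.47 and *Chek2* from 0.29 to 0.49. *Mdm4*, the partner of MDM2, was not called (0.03, adjusted p = 0.918 by limma). *Cdkn2a*, whose locus gives both p16 and the MDM2 inhibitor p19ARF, had 6.76 and 3.67 FPKM in the control pair against 9.79 and 7.46 in the knockdown pair. Both shNAT10 libraries were higher, but the shNC libraries differed widely and the log2 fold change of 0.77 did not pass the threshold (SE 0.33, adjusted p = 0.35 by limma). The table does not separate the transcripts of this locus. The ribosomal protein genes *Rpl5* (-0.16), *Rpl11* (-0.11) and *Rpl23* (-0.24), whose free proteins bind MDM2 in ribosomal stress, were not called. Of the p53 relatives *Trp63* had 1 fragment and *Trp73* was listed at 0, and neither was tested.

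Genes that p21 represses through the DREAM complex, a repressor of cell cycle genes assembled on RB-family proteins, were followed because they lie downstream of *Cdkn1a*. The list was made with earlier results of these data known. Of 21 such genes 10 were called higher in shNAT10 and 0 lower, and their median was 0.35 on the log2 scale, beside 8.41% of all genes called higher. They were *Cenpf* (0.82), *Ccna2* (0.44), *Aurka* (0.43), *E2f1* (0.36), *Ccnb2* (0.36), *Cdk1* (0.36), *Mcm5* (0.35), *Top2a* (0.30), *Ect2* (0.28) and *Bub1* (0.27), which act in replication and mitosis. The count was 12 without shNC replicate 1, 7 without shNC replicate 2, 3 without shNAT10 replicate 1, 2 without shNAT10 replicate 2 and 2 without the variance trend, with 0 lower in each of these fits. Scaled to all recovered fragments it was 20, with 0 lower. *Cdk1* had 21.1 and 17.3 FPKM in the control pair against 24.0 and 25.1 in the knockdown pair. The libraries of the groups did not overlap. *Plk1* (0.14) and *Cdc20* (0.08) were not called. Of the 12 genes of the complex and its RB family, *Rb1* (0.58), *Rbl1* (0.53), *Tfdp1* (0.37) and *Lin54* (0.34) rose and *Lin52* (-0.74) fell. With a library left out 0 to 2 of the 12 were higher. *Lin52* kept its call without shNC replicate 2 but lost it in the other 3 such fits, without the variance trend and on the total-fragment scale, where 6 were higher and 0 lower.

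Family relatives of the members that were on none of the target lists were set beside them, a list added after the members' values had been seen. Of 14 relatives 10 could be tested, with 2 higher (20%) and 1 lower (10%) and a median log2 fold change of -0.06, beside shares over all genes of 8.41% and 7.83%. These counts were 5 and 1 when scaled to all recovered fragments, 1 and 2 under the replicate block, and 0 and 1 with any 1 library left out. *Cdkn1b*, which encodes p27, had a log2 fold change of -0.03 where *Cdkn1a* had 0.30, and *Cdkn1c* was listed at 0. *Ccng2* had -0.27 (adjusted p = 0.493 by limma) where *Ccng1* had 0.64. *Trp53inp2* had -0.09 where *Trp53inp1* had 0.43, and *Phlda1* had -0.21 where *Phlda3* had 0.69. None of these 4 tested relatives was called, and the differences within families were not tested. *Zmat1* (0.76) and *Sesn3* (0.56) were called higher, but not in the fits with 1 library left out. *Plk3*, a stress-responsive relative of *Plk2*, had 7.33 and 6.59 FPKM in the control pair against 2.39 and 2.78 in the knockdown pair. It showed the largest fall on this list, with a log2 fold change of -1.40 (SE 0.14, adjusted p = 0.0533 by limma, adjusted p = 1.75e-05 by limma-voom).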

How the data were processed

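The authors deposited FPKM for each gene in 2 shNC and 2 shNAT10 Long RNA-seq libraries, and per the labels' processing notes used cutadapt, HISAT2, DESeq2 and mm10. The counting program and its strand setting are not given in the sources used here. The methods describe an rRNA-depleted library kit and the labels an mRNA isolation, so the records differ. A table of the authors' comparison (log2 fold changes and p-values) was not used, and 0 other columns of single libraries were left out.

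Libraries were grouped by titles. Exon lengths of GENCODE M21 turned the FPKM of 53360 genes back into whole reads (fragments). Of values under 50 fragments, 96.0% to 96.6% per library lay within 0.02 of a whole number, as against 4.0% by chance. These fragments give the depth and the limma-voom alternative. A floor of 3 fragments is 0.255 FPKM for a gene of 1 kb in shNC-1 and 0.196 FPKM in shNAT10-2, and it covers counting error only.

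The main comparison was limma 3.58.1 (R 4.3.3, lmFit and eBayes with trend) on log2(FPKM + 0.1) of genes whose mean FPKM reached 0.1, with no replicate block. The fit was tested on simulated data. Other steps ran in Python 3.11.15 (pandas 2.3.3, numpy 2.4.6, matplotlib 3.10.9). Alternatives comprised a pseudocount of 1 or 0.01, no filter or a mean of 1 FPKM as filter, median-ratio, protein-coding-sum, quantile and total-fragment scaling, no trend, limma-voom, a replicate block and each library left out. The members and lists were chosen with earlier results of these data known. Every member was named, with *Nat10*, and up to 10 called genes per pathway list by size of change. Genes that were not called were chosen after their values were seen, and cell type markers are given as sums with some genes named. *Rfwd2* is the older symbol of *Cop1*.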

Additional observations from a re-analysis of the deposited data

How the results depend on the processing

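Median-ratio rescaling was no separate check, because the deposited FPKM already carry it, and limma-voom used the same factors. The 6 members called higher stayed within 1.5 times under every other scaling, filter and pseudocount tried (6 or 7), and 4 were called without the trend. With 1 library left out the count was 3 to 3, and the count of members called lower was 0 to 1, the 1 being *Sesn1* without shNC replicate 2. Over all genes, leaving out a library gave 1108 to 1734 higher and 899 to 1659 lower. For the further targets it gave 6 to 13 higher and 1 to 4 lower. Scaling to the total of all recovered fragments gave 5287 genes higher and 311 lower, 28 further targets higher and 1 lower, and a members' median of 0.77, which moved with the median of all genes (0.381). On that scale *Plk2* (0.15), *Rchy1* (0.12), *Cyfip2* (0.058) and *Rrm2b* (0.053) changed sign, but not relative to the median of all genes. Relative to it they were at -0.23, -0.257, -0.323 and -0.328. *Trp53* ranged from -0.038 to 0.25 with 1 library left out. Without the trend 4 further targets were lower, and the cause was not tested.

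The replicate numbers did not pair the libraries, since deviations of same-numbered libraries had a correlation of 0.00711. With the number as a block, 6 members were called higher and 4 further targets were called lower, and of 55 genes followed (the members, *Ifitm3*, *Nat10* and called genes) 43 kept their side of the threshold, 11 lost the call and 1, *Ifitm3*, gained it. With 1 library left out, between 20 and 35 of them lost it. Those fits leave a group with 1 library, which is assumed to vary like the other group.

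With 51 to 90 fragments per library, *Sesn1* is the member whose precision depth limits most.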
